A study of Mus musculus with 6 samples.

Results

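Heat shock proteins and chaperonins were followed by RNA sequencing of NIH3T3, a fibroblast cell line derived from mouse embryos. The rule named 38 genes, the heat shock factors with the main cytosolic and mitochondrial chaperones and their partners, and took those whose Ensembl ID carries the symbol in the mouse GENCODE annotation. Of these 37 were found among the 24938 genes listed in each library, and Hspa14 was not analysed here. The control group is 3 libraries of wild type cells, and the other group is 3 libraries of cells labelled as overexpressing F-CircAE, an AML1-ETO related fusion circular RNA. The AML1-ETO fusion of the genes RUNX1 and RUNX1T1 occurs in a form of human leukaemia, and circular RNAs are closed loops without free ends. No agent, time point or allele beyond that genotype is given, and the labels name no promoter, clone or empty vector control. The procedure and the circular RNA therefore cannot be told apart. Whether the 3 libraries of a group are separate cultures is not stated, and p-values therefore rest on the spread between libraries alone, which may be technical.

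Chaperones bind unfolded or partly folded proteins and let them fold without aggregating. Hsp70 works in cycles of ATP binding that are started by J-domain proteins (Hsp40) and reset by nucleotide exchange factors such as the Hsp110 proteins, Hsp90 finishes the folding of kinases and steroid receptors with a set of co-chaperones, and the chaperonins are barrels that enclose a client. Heat shock factor 1, encoded by Hsf1, switches on the inducible genes of this system when unfolded proteins accumulate, by binding repeats of GAA and its reverse complement TTC in their promoters. Constitutive members of the same families supply growing cells without stress.

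Values are FPKM, fragments scaled to gene length and library size, and depth lay between 16969915 and 21843880 reads per library as recovered from the FPKM steps. Of the 9 of 10 fibroblast marker genes found, all 9 exceeded 1 FPKM in at least 3 libraries. Their summed level ran from 1947 to 2488 FPKM in control and from 1737 to 2146 FPKM with overexpression. The summed levels of epithelial, endothelial, blood cell, muscle and adipocyte markers stayed at or below 6.4 FPKM in every library, and the pan-leukocyte gene Ptprc stood between 0.005 and 0.012 FPKM. Control replicates 1 and 2 stood apart from all the others by their likeness to each other. Over the 35 members tested, their reads differed by a chi-square per gene of 1.7, where counting error alone gives 1, and this ran from 14.64 to 215.32 in the other 14 pairs of libraries. Over all tested genes the corresponding values were 1.48 and 5.85 to 29.69. Whether these libraries share an RNA or a culture was not tested. With their mean counted as 1 control, 0 members passed the test described next, and the median log2 fold change of the members was 0.12. Results are also given without control replicate 3, the control that departs from that pair.

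No chaperone gene passed the test between overexpression and control. The 35 members above 1 FPKM in at least 3 libraries were tested together with all other such genes, 12222 in all, with limma on log2(FPKM + 1). At a Benjamini-Hochberg adjusted p below 0.05, 0 members and 0 genes (0% of those tested) were called, and the smallest adjusted p of a member was 0.842. At an unadjusted p below 0.05 there were 5 members, or 14.3% of members beside 5.17% of all tested genes. Of these 4 were higher with overexpression (2.86% of all tested genes) and 1 was lower (2.31%). The estimate lay above 0 in 30 of 35 members (85.7%), beside 53.2% of all tested genes. The median log2 fold change was 0.15 over the members and 0.01 over all tested genes. These shares describe the list and were not tested. After rescaling every library to the same FPKM sum, the estimate lay above 0 in 26 of 35 members (74.3%) and in 32.9% of all tested genes, and those of Hsf2, Hsph1, Chordc1 and Hspb8 turned below 0. At an unadjusted p below 0.05 there were then 0 higher members and 1 lower, beside 745 of the 12214 genes tested. The 4 higher members above therefore passed this threshold only with the FPKM scaling as given. The estimated differences were small. Cryab had the highest absolute estimate, 0.39 on the log2 scale, and for 32 of the 35 members the 95% interval excluded a 1.5-fold change of FPKM + 1 in either direction. These intervals count control replicates 1 and 2 as separate controls, which the labels do not state. Limma-voom on the recovered reads also called 0 members, with 8 at an unadjusted p below 0.05, beside 755 of all genes it tested. A limma fit that weighted the libraries by their scatter called 22 members (62.9%), 20 higher and 2 lower, beside 18.3% of all tested genes. The weights of control replicates 1, 2 and 3 were 2.155, 2.571 and 0.236. Those of overexpression replicates 1, 2 and 3 were 0.278, 4.638 and 0.593. This fit thus leans on control replicates 1 and 2 and overexpression replicate 2, and the control spread behind its p-values may be technical. Shares of all tested genes by direction are not given for this fit.

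The libraries did not line up with their groups. In 23 of the 35 members (65.7%, beside 18.3% of all tested genes) control replicates 1 and 2 were the lowest libraries of the 6, below control replicate 3 and below every overexpression library. Control replicate 3 exceeded both other controls in 26 members (74.3%, beside 43.6% of all tested genes). It lay above the lowest overexpression library in 30 members (85.7%, beside 74.3% of all tested genes). Overexpression replicate 1 was the highest library in 20 members (57.1%, beside 26.2%). On the mean of all tested members, after centring each gene on its 6 libraries, the values were -0.12, -0.11 and 0.04 for control replicates 1, 2 and 3, and 0.15, 0.04 and -0.01 for those of overexpression. Control replicate 3 thus stood level with overexpression replicate 2 and above overexpression replicate 3. Of the 9 fibroblast markers, 7 (Col1a1, Col1a2, Col3a1, Pdgfrb, Thy1, Fn1 and Dcn) had control replicates 1 and 2 as their highest libraries. Vim, which encodes the filament protein vimentin, had them as its lowest, like most chaperone genes, at 563 and 560 FPKM beside 606 in control replicate 3 and 567, 601 and 665 with overexpression. S100a4 followed neither order. The share of all tested genes with control replicates 1 and 2 as the highest libraries was not computed. Fn1 and Dcn are given as examples chosen after their values were seen. Fn1, which encodes fibronectin, had 541 and 537 FPKM in control replicates 1 and 2, 319 in control replicate 3, and 243, 345 and 343 in overexpression replicates 1, 2 and 3. Dcn, which encodes the matrix proteoglycan decorin, had 57.2 and 58.1 FPKM in control replicates 1 and 2, 26.4 in control replicate 3, and 14.3, 25.5 and 32.6 in overexpression replicates 1, 2 and 3. The part of these markers in the chaperone values was not tested, and in bulk RNA fewer cells of a kind and less RNA per cell cannot be told apart. Without control replicate 3, 18 members (51.4%) reached an unadjusted p below 0.05, beside 15.4% of all genes then tested, and the median was 0.20. Of these 16 were higher (8.81% of all genes) and 2 lower (6.62%). No member passed after adjustment, as against 0.0166% of all genes. Only control replicates 1 and 2 remain in that fit, and their reads differed little beyond counting error (chi-square per gene 1.48 over all tested genes). The control spread behind its p-values may therefore be technical, and this holds for every p-value without control replicate 3 given below. Without overexpression replicate 1 the median was 0.09, and 2 members (5.71%) reached an unadjusted p below 0.05, beside 4.82% of all genes then tested.

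**Figure D1:**
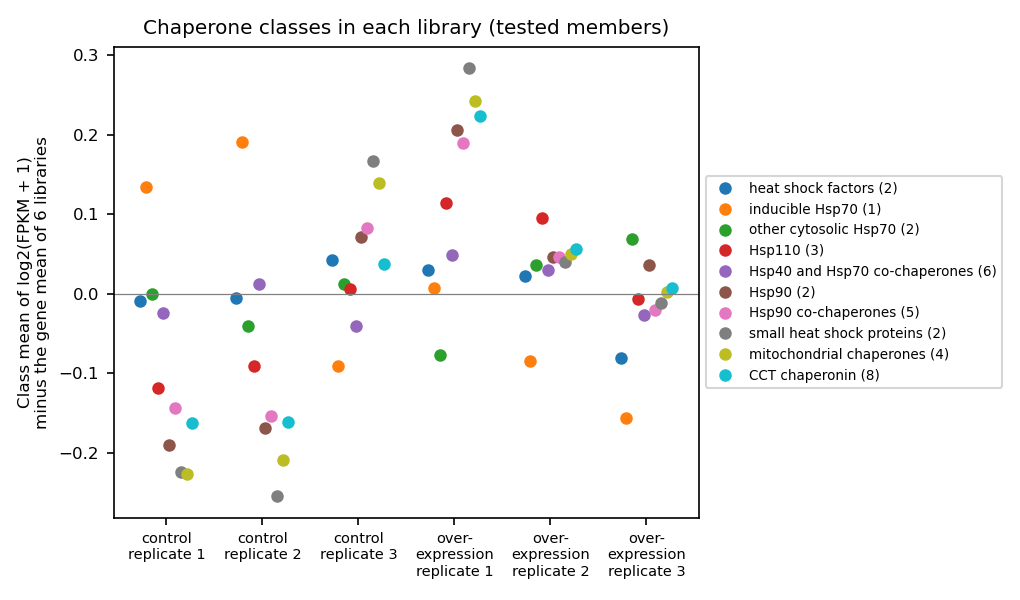
Mean of the tested members of each chaperone class in each library (vertical axis, log2(FPKM + 1) after subtracting each gene's mean over the 6 libraries; number of tested members in brackets). The CCT, mitochondrial and Hsp90 classes are below 0 in control replicates 1 and 2 and above 0 in control replicate 3 and in overexpression replicate 1, while inducible Hsp70, which is Hspa1b alone, has its highest values in control replicates 1 and 2.

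Neither heat shock factor gene passed the test. Hsf1 (chromosome 15, 76477422 to 76501913, mm10, as for the positions below) had 26.8, 25.4 and 29.7 FPKM in the controls, in the order of their numbers, and 26.7, 26.1 and 25.5 FPKM with overexpression. The overexpression libraries all lay within the range of the controls. The estimate came to -0.06 (log2 fold change, standard error 0.07; limma adjusted p = 0.883). Hsf2, which encodes a related factor active mainly in development, had a control mean of 7.96 ± 0.39 FPKM and an overexpression mean of 8.09 ± 0.60 FPKM (SD, n = 3). The 95% interval around its estimate of 0.02 ran from -0.15 to 0.19. The sign of both estimates turned when control replicate 3 was left out.

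Among the Hsp70 genes the constitutive Hspa8 exceeded the inducible copies by far in every library. Hspa8 encodes Hsc70, the Hsp70 of unstressed cells, and lies on chromosome 9 from 40800984 to 40810087. It had 346, 335 and 368 FPKM in the controls and 353, 358 and 389 FPKM with overexpression. The groups overlapped, and the estimate came to 0.07 (log2 fold change, standard error 0.07; limma adjusted p = 0.867). The inducible Hspa1b, on chromosome 17 from 34956436 to 34959238, had 8.07, 8.44 and 6.76 FPKM in the controls and 7.31, 6.798 and 6.42 FPKM with overexpression. Control replicates 1 and 2 were the highest libraries and control replicate 3 lay among the overexpression libraries, so the groups overlapped. The estimate came to -0.16 (log2 fold change, standard error 0.09; limma adjusted p = 0.843). It was -0.24 without control replicate 3 and -0.0995 without control replicate 2. Its sign was opposite to that of most members. Hspa2, a member of the family best known from the testis, had a control mean of 5.77 ± 0.14 FPKM and an overexpression mean of 5.65 ± 0.48 FPKM (SD, n = 3). The ratio of Hspa1b to Hspa8 FPKM, which does not depend on the scaling of a library, was 0.0223 ± 0.0035 in control and 0.0187 ± 0.0021 with overexpression (SD, n = 3). An exact two-sided permutation test over libraries gave p = 0.3 for this ratio and 0.45 after adjustment over the 3 ratios computed, where 3 against 3 libraries cannot go below 0.1.

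Hspa1a, the other inducible copy, lies next to Hspa1b on chromosome 17 (34969190 to 34972156) and had few reads. Its reads numbered 7, 13 and 6 in control and 4, 11 and 6 with overexpression, or 0.12, 0.21, 0.11, 0.08, 0.17 and 0.11 FPKM. It was below the filter and not tested. The summed reads were 26 in control (exact 95% Poisson interval 17 to 38.1) and 21 with overexpression (13 to 32.1), which covers counting error only. The level of either copy is uncertain because their transcripts share long identical stretches. Of all 125-base stretches of the Hspa1a transcript 42.2% occur letter for letter in Hspa1b, and 44.8% of those of Hspa1b occur in Hspa1a. How reads that fit several genes were counted is not given in the sources used here. The promoters are alike as well. The stretches below are the 250 bases before each gene start in RefSeq (GRCm38.p6), shown because both hold a match to the heat shock element, and they differ from each other at 3 of 250 positions. Capitals mark GAANNTTC, searched on both strands, where N is any base.
Hspa1a, chr17:34972157-34972406, minus strand: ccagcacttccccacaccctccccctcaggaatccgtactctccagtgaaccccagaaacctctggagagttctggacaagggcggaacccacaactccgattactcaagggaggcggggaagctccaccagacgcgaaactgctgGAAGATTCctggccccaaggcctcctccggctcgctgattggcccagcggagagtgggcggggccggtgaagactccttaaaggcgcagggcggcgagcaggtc
Hspa1b, chr17:34959239-34959488, minus strand: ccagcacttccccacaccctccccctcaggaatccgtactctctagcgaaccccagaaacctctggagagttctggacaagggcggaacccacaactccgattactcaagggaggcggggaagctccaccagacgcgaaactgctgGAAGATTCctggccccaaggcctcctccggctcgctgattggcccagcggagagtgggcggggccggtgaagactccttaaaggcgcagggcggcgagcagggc
In each the match begins 104 bases before the gene start.

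**Figure D2:**
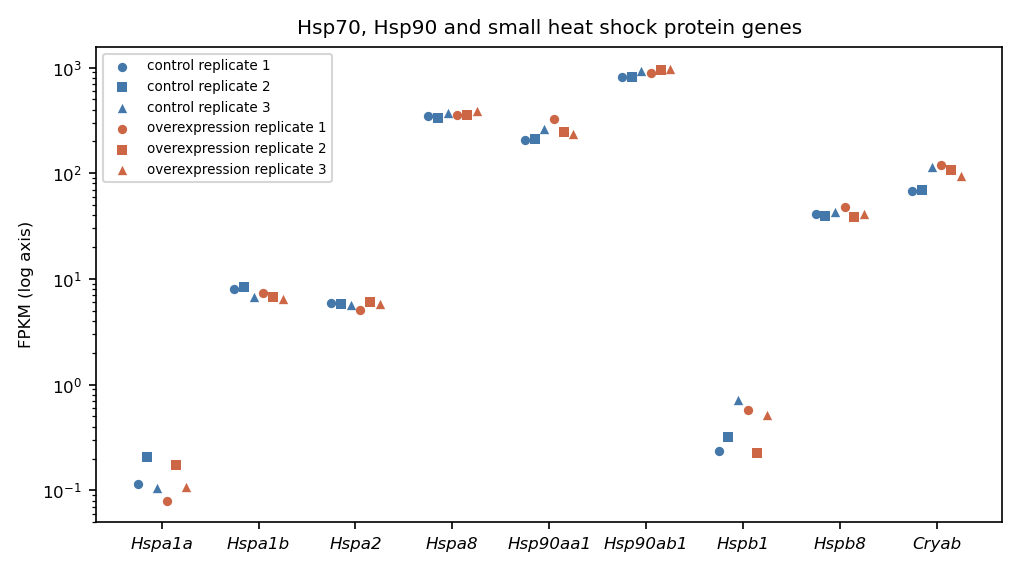
FPKM of the Hsp70, Hsp90 and small heat shock protein genes in each of the 6 libraries (log axis). Hspa8 and Hsp90ab1 stand above the inducible genes of their families in every library, Hspa1a and Hspb1 stay below 1 FPKM, and Cryab is lower in control replicates 1 and 2 than in the other 4 libraries.

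The Hsp110 genes, which encode nucleotide exchange factors of Hsp70, included the member with the smallest p. Hspa4l, on chromosome 3 from 40744495 to 40796103, had 17.9, 17.7 and 17.8 FPKM in the controls and 20.2, 21.4 and 19.5 FPKM with overexpression. All overexpression libraries lay above all controls, and here control replicate 3 stood with the other controls. The means differed 1.14-fold, and the estimate came to 0.18 (log2 fold change, standard error 0.06; limma adjusted p = 0.842). Groups that do not overlap were found in 5 of 35 members (14.3%), beside 11.5% of all tested genes. Of these 4 were higher with overexpression (6.81% of all tested genes) and 1 was lower (4.69%). Hspa4 had a higher level, at 62.2, 63.4 and 74.9 FPKM in the controls and 86.2, 73.6 and 65.8 FPKM with overexpression. Its groups overlapped, and the estimate of 0.16 (standard error 0.12, limma adjusted p = 0.843) was 0.06 without overexpression replicate 1. The median of the 3 Hsp110 genes was 0.16, and 0.085 without overexpression replicate 1. Hsph1, the classical heat-inducible Hsp110 gene, had a control mean of 36.7 ± 1.56 FPKM and an overexpression mean of 38.3 ± 1.27 FPKM (SD, n = 3).

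The J-domain proteins and other partners of Hsp70 had estimates on either side of 0. Dnajb1 encodes the heat-inducible Hsp40 that delivers clients to Hsp70. It had 31.9, 32.5 and 32.4 FPKM in the controls and 34.8, 35.5 and 37.8 FPKM with overexpression. The groups did not overlap, and the estimate came to 0.15 (log2 fold change, standard error 0.06; limma adjusted p = 0.842). Bag3, which encodes a nucleotide exchange factor that links Hsp70 to small heat shock proteins and to autophagy, was the single member whose overexpression libraries all lay below the controls. It had 22.5, 22.8 and 20.98 FPKM in the controls and 19.0, 20.4 and 20.3 FPKM with overexpression. The estimate came to -0.14 (log2 fold change, standard error 0.06; limma adjusted p = 0.842). Dnajb4, another J-domain gene, also had an estimate below 0, with a control mean of 6.40 ± 0.40 FPKM and an overexpression mean of 5.85 ± 0.42 FPKM (SD, n = 3). St13, which encodes the Hsp70-interacting protein Hip, had a mean of 81.9 FPKM over the 6 libraries, close to the 81.1 FPKM of Dnaja2, which was the higher of these in control replicate 3 and in overexpression replicates 1 and 2. St13 stood at 80.6, 81.8 and 74.7 FPKM in the controls and 89.1, 83.7 and 81.6 FPKM with overexpression. Overexpression replicate 3 lay just below control replicate 2, so the groups overlapped, and the estimate came to 0.10 (log2 fold change, standard error 0.07; limma adjusted p = 0.843). Dnaja1 and Dnaja2, 2 further J-domain proteins, had estimates of 0.10 and 0.11. Part of the Dnaja1 exons, 7%, overlaps those of Smu1 on the opposite strand, so without knowledge of strand some of its reads cannot be assigned.

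Hsp90ab1, the constitutive cytosolic Hsp90, had the highest level of all members. It lies on chromosome 17 from 45567775 to 45573271 and had 808, 817 and 921 FPKM in the controls and 897, 940 and 977 FPKM with overexpression. Control replicate 3 lay between overexpression replicates 1 and 2, while the other controls were below every overexpression library. The estimate came to 0.15 (log2 fold change, standard error 0.08; limma adjusted p = 0.842), and 0.21 without control replicate 3. The inducible Hsp90aa1 had 207, 211 and 261 FPKM in the controls and 324, 247 and 235 FPKM with overexpression. Overexpression replicate 1 stood above all other libraries, and control replicate 3 exceeded overexpression replicates 2 and 3. The estimate of 0.24 was 0.10 without overexpression replicate 1 and 0.34 without control replicate 3. The ratio of Hsp90aa1 to Hsp90ab1 was 0.257, 0.258 and 0.283 in the controls and 0.361, 0.263 and 0.240 with overexpression (exact permutation test, two-sided, p = 0.8, adjusted 0.8). The overexpression libraries therefore held both the highest and the lowest ratio. Of the 125-base stretches of the Hsp90aa1 transcript 41.3% occur in other annotated transcripts, mostly the pseudogene Gm12346, and for Hspa8 the share is 59.1%, mostly Gm26825, while Hsp90ab1 shares none.

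All 5 co-chaperones of Hsp90 had estimates above 0, none past the test, with a median of 0.17 that was 0.0895 without overexpression replicate 1. In each of the 5, control replicates 1 and 2 were the lowest libraries, as in 18.3% of all tested genes. Fkbp4, a peptidyl-prolyl isomerase of steroid receptor complexes on chromosome 6 (128429735 to 128438677), had 84.1, 83.6 and 106 FPKM in the controls and 107, 104 and 101 FPKM with overexpression. Control replicate 3 was within the overexpression range, and the estimate came to 0.19 (log2 fold change, standard error 0.10; limma adjusted p = 0.842), or 0.30 without that library. Stip1 encodes Hop, which joins Hsp70 to Hsp90. It had 110, 109 and 125 FPKM in the controls and 149, 120 and 124 FPKM with overexpression, and its groups overlapped at an estimate of 0.18 with a standard error of 0.10 (limma adjusted p = 0.842). Without overexpression replicate 1 the estimate was 0.0895 for Stip1 and 0.0197 for Ahsa1. Ahsa1, which encodes the activator of the Hsp90 ATPase, Ptges3, which encodes p23, and Chordc1, which encodes morgana, had estimates of 0.11, 0.17 and 0.06. Ptges3-ps shares 19.0% of the 125-base stretches of the Ptges3 transcript.

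Of the small heat shock proteins, Hspb1 had few reads and Cryab had the largest estimate of all members. Hspb1, which encodes Hsp25, was covered by 5, 7 and 14 control reads and by 10, 5 and 10 with overexpression, below 1 FPKM throughout, and was not tested. The summed reads were 26 (exact 95% Poisson interval 17 to 38.1) and 25 (16.2 to 36.9). Cryab encodes alphaB-crystallin, a small heat shock protein that holds unfolded proteins in solution, and lies on chromosome 9 from 50751325 to 50756636. It had 68.4 and 68.8 FPKM in control replicates 1 and 2, 113 in control replicate 3, and 121, 107 and 93.8 FPKM with overexpression. Control replicate 3 therefore exceeded overexpression replicates 2 and 3. Control averaged 83.5 ± 25.9 and overexpression 107 ± 13.4 FPKM (SD, n = 3), 1.29 times as much, and the estimate came to 0.39 (log2 fold change, standard error 0.21; limma adjusted p = 0.842). Without control replicate 3 the estimate was 0.63 (limma adjusted p = 0.168). The median of Cryab and Hspb8, 0.21, was 0.34 without control replicate 3, 0.13 without control replicate 2 and 0.12 without overexpression replicate 1. Cryab shares 17% of its exon bases with Hspb2 on the opposite strand. Hspb8, a partner of Bag3, had a control mean of 41.5 ± 1.90 FPKM and an overexpression mean of 42.4 ± 5.06 FPKM (SD, n = 3).

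For all 4 mitochondrial chaperone genes the estimate lay above 0 (median 0.19), none past the test. In all 4 control replicates 1 and 2 were the lowest libraries, beside 18.3% of all tested genes. The median was 0.34 without control replicate 3, and 0.11, 0.13 and 0.13 without control replicate 1, control replicate 2 and overexpression replicate 1. Hspe1 and Hspd1 encode Hsp10 and Hsp60, the lid and the barrel of the mitochondrial chaperonin, and are read in opposite directions from neighbouring starts on chromosome 1 (55088132 to 55091307 and 55077835 to 55088243). Hspe1 had 165, 166 and 205 FPKM in the controls and 255, 202 and 202 FPKM with overexpression. Control replicate 3 lay above overexpression replicates 2 and 3, and the estimate came to 0.30 (log2 fold change, standard error 0.13; limma adjusted p = 0.842), or 0.18 without overexpression replicate 1. Hspd1 had 209, 207 and 244 FPKM in the controls and 309, 238 and 220 FPKM with overexpression. Overexpression replicate 1 again stood highest, and the estimate of 0.20 (standard error 0.14, limma adjusted p = 0.843) was 0.06 without it. The ratio of Hspe1 to Hspd1 was 0.809 ± 0.028 in control and 0.864 ± 0.048 with overexpression (SD, n = 3; exact two-sided permutation p = 0.2, adjusted 0.45). Other annotated genes share 17.4% of the 125-base stretches of the Hspe1 transcript and 22.1% of those of Hspd1. Hspa9, the mitochondrial Hsp70 that pulls proteins through the import channel, had 83.3 and 87.4 FPKM in control replicates 1 and 2, 135 in control replicate 3, and 123, 110 and 107 FPKM with overexpression. Control replicate 3 was the highest of all 6 libraries, and the estimate of 0.18 was 0.40 without it (limma adjusted p = 0.19). Leaving out control replicate 1 gave 0.0576 for Hspa9, and leaving out control replicate 2 gave 0.0917. Trap1, the mitochondrial Hsp90, had 66.7 ± 6.44 and 71.5 ± 2.51 FPKM (SD, n = 3).

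The bases between RefSeq starts of Hspd1 and Hspe1 are shown because they hold a longer motif, GAANNTTC followed by any 2 bases and GAA. Of the 2 RefSeq starts of Hspd1, at 55087932 and 55088243, the first was used because the bases before it hold this motif. The second lies beyond the start of Hspe1 at 55088148, so the stretch is upstream of Hspd1 for the first start only. By the annotated gene positions given above, the stretch lies inside Hspd1 and its last bases lie inside Hspe1. Capitals mark overlapping matches to the longer motif, searched on both strands, each of which contains the shorter one. The sequence is from RefSeq (GRCm38.p6), in the sense of Hspe1.
Hspd1 and Hspe1, chr1:55087933-55088147, plus strand: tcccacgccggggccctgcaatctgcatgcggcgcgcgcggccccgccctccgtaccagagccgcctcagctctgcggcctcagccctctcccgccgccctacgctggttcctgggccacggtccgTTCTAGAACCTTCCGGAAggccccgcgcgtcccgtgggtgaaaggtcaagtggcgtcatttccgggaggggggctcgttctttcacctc
RefSeq windows from 250 bases before to 50 after the gene start were matched for 29 of the 37 members. The 8 without a window were Hsf1, Hspa8, St13, Hsp90aa1, Hsp90ab1, Cryab, Hspa9 and Cct4. The shares and medians below leave these genes out, among them Cryab with the largest estimate. The longer motif was present in a window of 4 of these 29 (Hsph1, Chordc1, Hspd1 and Hspe1, 13.8%), beside 0.662% of all 27025 genes in the table. The shorter GAANNTTC was present in 12 (41.4%, beside 9.04%). Hspd1 and Hspe1 are counted here for the same bases, those shown above, and Hspd1 through 1 of its 2 starts. Hspa1a and Hspa1b are counted for near-identical promoters. These shares therefore count some sequence more than once. The 4 members with the longer motif had a median log2 fold change of 0.13, the 6 tested members with the shorter motif alone 0.06, and the 17 members with neither 0.16. A match describes the sequence only and does not show that a factor binds there.

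All 8 subunit genes of CCT had estimates above 0, from 0.13 to 0.25 with a median of 0.21, and none passed the test. CCT is the cytosolic chaperonin that folds actin and tubulin, and each of its rings holds one copy of every subunit, so the genes encode parts used in equal number. In all 8 the lowest libraries were control replicates 1 and 2 and the highest was overexpression replicate 1. Over all tested genes the shares for these orders were 18.3% and 26.2%. Control replicate 3 lay inside the range of the overexpression libraries in 6 of the 8 (over all tested genes, 6320 of 12222). The exceptions were Tcp1 and Cct5, whose groups did not overlap. Tcp1, on chromosome 17 from 12915701 to 12925067, had 41.1, 41.4 and 45.5 FPKM in the controls and 54.5, 48.5 and 46.0 FPKM with overexpression. Control replicate 3 was just below overexpression replicate 3, and the estimate came to 0.21 (log2 fold change, standard error 0.08; limma adjusted p = 0.842). Cct5, on chromosome 15 from 31590800 to 31601804, had 157, 156 and 164 FPKM in the controls and 183, 172 and 176 FPKM with overexpression. The estimate came to 0.16 (log2 fold change, standard error 0.06; limma adjusted p = 0.842). Cct2, the subunit gene with the highest FPKM, had 212, 210 and 243 FPKM in the controls and 260, 234 and 232 FPKM with overexpression, and its groups overlapped at an estimate of 0.13 (standard error 0.08, limma adjusted p = 0.843), which was 0.20 without control replicate 3 and 0.08 without overexpression replicate 1. Without control replicate 3 all 8 reached an unadjusted p below 0.05, beside 15.4% of all genes then tested, and none passed after adjustment. Without overexpression replicate 1 none of the 8 reached an unadjusted p below 0.05, beside 4.82% of all genes then tested, and the median was 0.13.

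The levels of the CCT genes spanned 5.35-fold in mean FPKM, although their products are used in equal number. The order ran Cct2, Cct5, Cct4, Cct8, Cct6a, Cct7, Tcp1 and Cct3, from 232 to 43.3 FPKM over the 6 libraries. Cct2, Cct5, Cct4 and Cct8 held the same place in every library, although the ranges of Cct4 and Cct8 over the libraries overlapped, while the ranges of Cct6a, Cct7, Tcp1 and Cct3 overlapped with those of their neighbours. The span depended on the gene lengths behind the FPKM. Cct3 was scaled by 6370 bases, the union of all its annotated exons, whereas its longest transcript with a consensus coding sequence has 1977. Expressed per length of that transcript, the 7 subunit genes that have one spanned 2.69-fold, Cct5 came before Cct2, and Cct3 stood in place 5 of 7. Cct6a has no such transcript in the annotation. It shares 12.5% of its exon bases with Psph on the opposite strand, and Tcp1 shares 11.4% with Acat3.

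**Figure D3:**
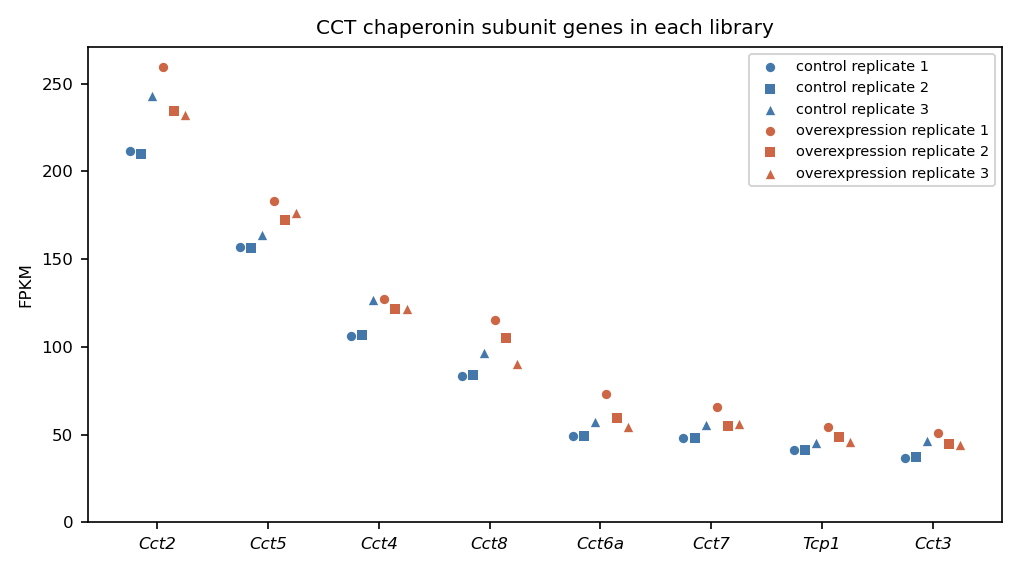
FPKM of the 8 CCT subunit genes in each library, ordered by mean level. For every gene control replicates 1 and 2 are the lowest points and overexpression replicate 1 is the highest, with control replicate 3 between them.

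**Figure D4:**
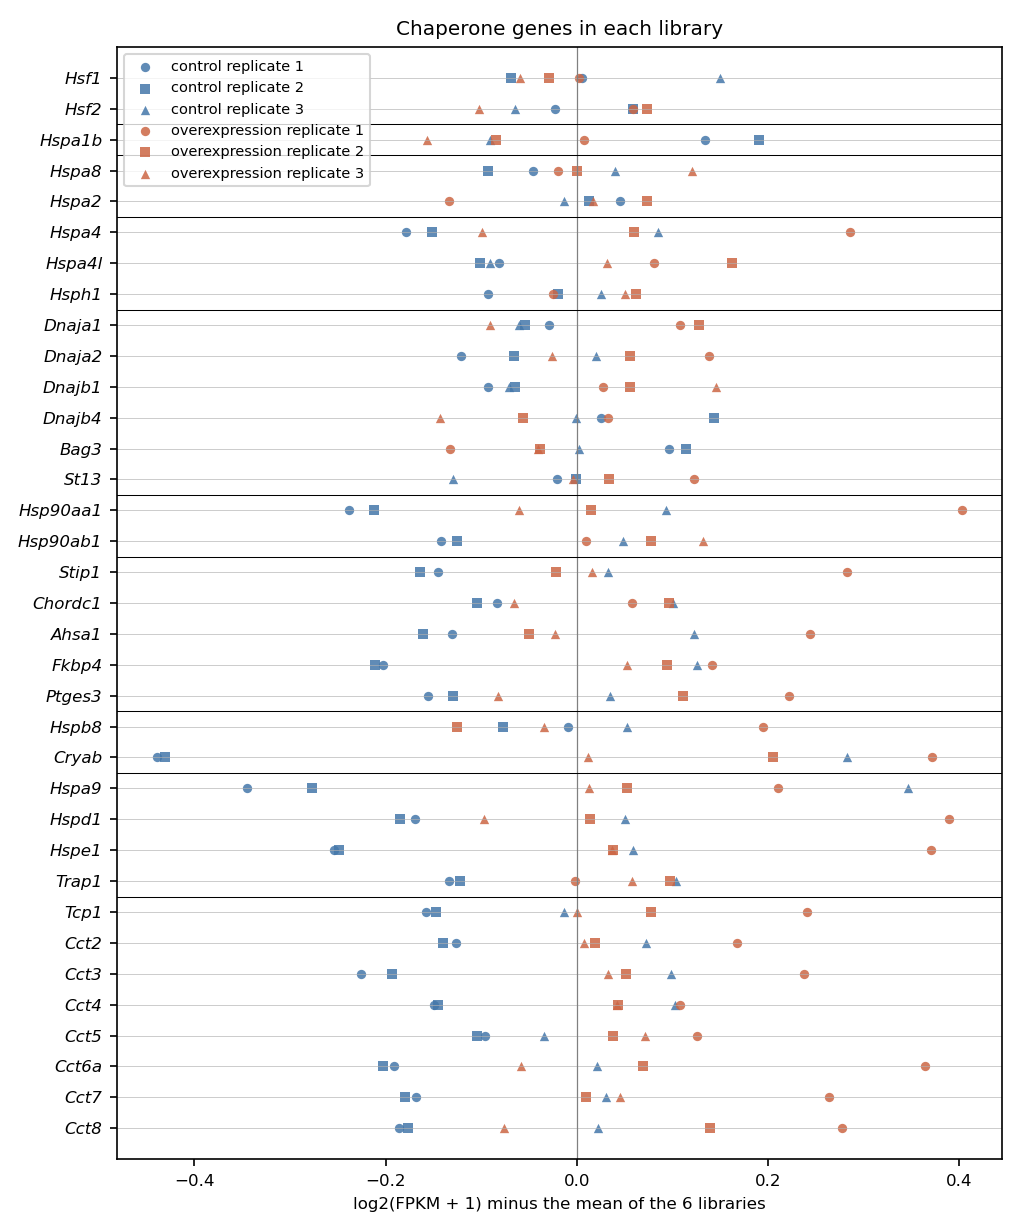
The 35 tested members in each library (horizontal axis, log2(FPKM + 1) minus the mean of the 6 libraries; lines separate the classes). Control replicates 1 and 2 lie at the left in 23 of the 35 members, and control replicate 3 mixes with the overexpression libraries.

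**Figure D5:**
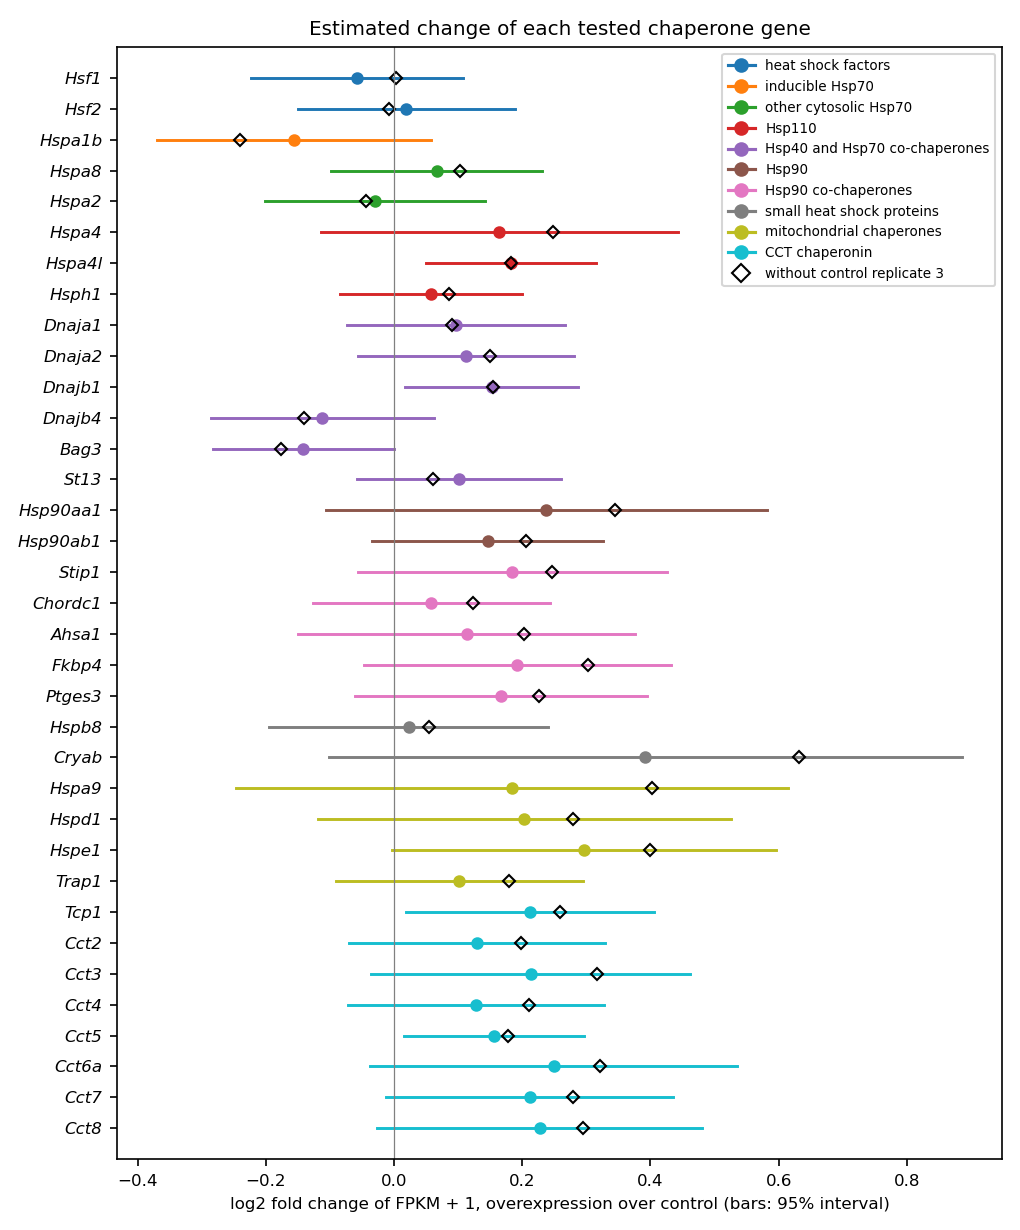
Log2 fold change of FPKM + 1 of each tested member, overexpression over control, with its 95% interval (filled points and bars) and the estimate without control replicate 3 (open diamonds). The intervals of 5 members exclude 0 before adjustment, namely Hspa4l, Dnajb1, Tcp1, Cct5 and Bag3, and none passed after adjustment.

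The other genes of the folding machinery were read from lists. Of 75 such genes in 6 lists, all 75 were found, 64 were tested and 0 passed, and 0 of them reached an unadjusted p below 0.05 beside 5.17% of all tested genes. The estimate was above 0 in 51 of the 64, with a median of 0.07, beside 53.2% and 0.01 for all tested genes. These counts by list were not repeated after rescaling to the same FPKM sum. Among 12 mitochondrial folding partners and proteases 11 had estimates above 0 (median 0.09), with Grpel1, the exchange factor of mitochondrial Hsp70, at 22.2, 22.8 and 25.8 FPKM in the controls and 30.7, 27.2 and 24.5 FPKM with overexpression. Clpb, a mitochondrial disaggregase, had an estimate of 0.12, and its groups did not overlap. Among 14 tested genes of prefoldin and other chaperonin partners 13 lay above 0 (median 0.08). Tbca, a tubulin folding cofactor, had 265, 269 and 253 FPKM in the controls and 325, 287 and 276 FPKM with overexpression, which did not overlap, and Tbcb, another such cofactor, had an estimate of 0.16. Of 14 further Hsp90 co-chaperones 12 lay above 0 (median 0.07), with Nudc at 0.18 and Tomm34, a partner in mitochondrial import, at -0.15. The groups of Nudc did not overlap either. Over all tested genes, 6.81% had groups that did not overlap and were higher with overexpression. The 10 tested further J-domain genes had a median of 0.05, with Dnajc9 and Dnajc2 both at 0.19, and the 9 further Hsp70 and exchange factor genes a median of 0.06, with Hspa13 and Bag2 both at 0.13. The 5 tested further small heat shock protein genes and heat shock factor regulators had a median of -0.01. Of these Serpinh1, the collagen chaperone Hsp47, had 343, 348 and 405 FPKM in the controls and 386, 370 and 369 FPKM with overexpression, and Hspb6 had an estimate of -0.05.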

How the data were processed

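RNA of wild type NIH3T3 cells (3 libraries) and F-CircAE overexpression cells (3 libraries) was treated with DNase, made into NEBNext Ultra libraries and read as paired ends on an Illumina HiSeq, per the labels' protocols. The deposited values are FPKM per Ensembl gene ID, per the file headers. The build was mm10, per the submitters' processing notes; not given in the sources used here: aligner, counting program, use of strand and annotation release. Symbols, positions and exon lengths came from GENCODE M21, which names 24816 of the 24938 IDs.

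Genes were tested on log2(FPKM + 1) with limma 3.58.1 (R 4.3.3; eBayes, trend and robust options), taking those above 1 FPKM in at least 3 libraries, with group as the only term and Benjamini-Hochberg adjustment over 12222 genes. Fold changes on this scale understate the change of low genes. Tested on simulated data for this comparison (12222 genes, 200 of them changed), the fit called 180 of the 200 at 2-fold and 114 at 1.5-fold, with 7 and 2 false calls. The simulated noise was independent between genes and had the same spread in every library. The real libraries differed in scatter, with weights from 0.236 to 4.64, so these rates do not give the power or error of this comparison. Reads were recovered because FPKM times gene length falls on whole multiples of a step (within 0.01 reads at the annotated exon length for 79.5% of genes, otherwise at the smallest length that gives whole reads), and served for depth, chi-square values and limma-voom. Stretches of 125 bases were compared across GENCODE transcripts, on both strands. Exact permutation tests and intervals are two-sided, and intervals cover counting error only.

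Full values are given for the member of each class with the highest mean FPKM, the one with the smallest p, and those with an unadjusted p below 0.05. Of each list of other folding genes the 2 with the smallest p are named, with their estimate or their values. Hsp90aa1, Hspa9, Hsf2 and other members printed beside these were chosen after their values were seen. The members, classes, lists and alternatives were chosen with earlier results of these data known. The alternatives were other pseudocounts, filters, scalings and library weights, a replicate block, averaging or leaving out libraries, and limma-voom, the last added after the data were seen.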

Additional observations from a re-analysis of the deposited data

How the results depend on the processing

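Of the 35 tested members, 29 kept the sign of their estimate under all 17 other settings. Array weights (from 0.236 for control replicate 3 to 4.64 for overexpression replicate 2) gave 2241 genes (18.3%) and 22 members (20 higher, 2 lower with overexpression); the cause was not tested. No other setting called a member. Leaving out 1 library gave 0 to 2 genes, with 2 without control replicate 3 and 1 without overexpression replicate 1, and 0 members. With 1 library left out, the count of members at an unadjusted p below 0.05 ran from 0 to 18. It was 0 without control replicate 2 and without overexpression replicate 2, beside 261 and 373 of all genes then tested. The 18 were without control replicate 3, beside 1856. Array weights gave 28 such members, beside 4589 of all tested genes. With control replicates 1 and 2 averaged the count was 1, beside 234 of all genes then tested. Medians by class, leaving out 1 library, ran from 0.085 (without overexpression replicate 1) to 0.213 for Hsp110, from 0.115 (without control replicate 1) to 0.339 (without control replicate 3) for mitochondrial chaperones, from 0.118 to 0.343 for small heat shock proteins, from 0.0895 to 0.226 for Hsp90 co-chaperones, from 0.137 to 0.275 for Hsp90, from 0.133 to 0.269 for CCT and from -0.24 to -0.0995 for Hspa1b, the only tested inducible Hsp70. Rescaling to the same FPKM sum moved the median of all tested genes from 0.01 to -0.05 and the share of estimates above 0 from 53.2% to 32.9% (members: 26 of 35), with class medians of -0.079 for heat shock factors, -0.0412 for other cytosolic Hsp70 and 0.0362 for Hsp40 and Hsp70 co-chaperones; Hsf2, Hsph1, Chordc1 and Hspb8 stood at -0.0383, -0.0051, -0.0039 and -0.0406. Upper-quartile scaling put Hsf2 at -0.0028 and Hspb8 at -0.0016, limma-voom with total reads put them at -0.0125 and -0.0124, and array weights put Hspa2 at 0.0309 and Hspb8 at -0.0582. Leaving out 1 library, Hsf1 ran from -0.106 to 0.0031, Hsf2 from -0.0123 to 0.0755, Hspa2 from -0.0732 to 0.0301 and Hspb8 from -0.0687 to 0.0912. The replicate numbers did not pair the libraries (correlations of same-numbered deviations -0.102, 0.083 and 0.003). With a replicate block 0 members passed, and 1 was at an unadjusted p below 0.05, beside 444 of all tested genes. The median of the members stayed at 0.15. DESeq2 and edgeR on the recovered reads were not run, because the deposited values are not counts. The filter on low values left Hspa1a and Hspb1 untested; with no filter both were fitted, 31 members had estimates above 0 and the median of the inducible Hsp70 genes was -0.0918 and of the small heat shock proteins 0.0238. Depth limits Hspa1a and Hspb1 to at most 14 reads a library.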
